A study of Mus musculus with 82 samples.

Results

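The mouse genome annotation used here holds 44 protein-coding genes whose symbol is Fox, a letter from a to s and a number, of 21853 protein-coding genes in all. After Foxa1, Foxa2, Foxa3, Foxc1 and Foxc2 were left out as the endoderm and somite members, 39 forkhead genes remained, and all of them were followed through lists of called peaks. They lie on 16 chromosomes and were grouped by textbook role into 4 genes of the epiblast and the Nodal pathway, 10 genes that are cycling-related or widely used, 10 neural and ciliary genes, 6 genes of gut, limb and kidney mesoderm, 7 genes of ectoderm, placodes and glands, and 2 genes of gonad and immune cells. Each gene was read at its promoter, the union of the windows from 1 kb before to 1 kb after its annotated transcription starts, and over its coding span with 1 kb on either side. The measure was the percentage of these bases that a called region covered, since peak heights are scaled to each library's own background.

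The samples were stembryos, aggregates of mouse embryonic stem (mES) cells. In this culture a pulse of the Wnt agonist Chiron from 48 h to 72 h after aggregation is followed by an elongating, posterior-like axis. The pulse starts at 48 h, a stage that the paper describes as before activation. Control (wt) stembryos came from the study's wt mES line and were collected from 48 h to 168 h. The lists cover acetylated lysine 27 of histone H3 (H3K27ac) at 9 stages, RNA polymerase II (PolII) and the cohesin loader NIPBL at 8 stages, the cohesin subunit RAD21 in 16 lists of 8 stages, and trimethylated lysine 27 (H3K27me3) at 4 stages. Each list came from a pool of stembryos that were not selected up to 96 h, and only elongating stembryos were kept from 108 h on. The Del(CBS1-5) stembryos lacked 5 CTCF sites of the HoxD cluster and came from a separate mES line that was derived from mouse blastocysts, so genotype and line background cannot be told apart. The Del(CBS1) and Del(CBS1-2) lines, which lack 1 and 2 of those sites, were edited clones of the wt line and received the same Chiron pulse.

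Forkhead proteins share a winged-helix DNA-binding domain, and several of them can bind their sites in closed chromatin. Their genes are used in narrow patterns: Foxh1 carries Nodal signals to Smad proteins in the epiblast, Foxd3 keeps epiblast and neural crest progenitors, Foxf1 and Foxf2 pattern the gut wall, and Foxn1 drives the thymic epithelium. The Foxk, Foxp and Foxo genes act in many tissues, the Foxo proteins as effectors of insulin and growth factor signalling. H3K27ac marks active promoters and enhancers, whereas H3K27me3 is the mark of Polycomb repressive complex 2 at CpG-rich promoters of developmental genes. NIPBL loads the cohesin ring, of which RAD21 is a part, and CTCF halts it.

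Promoter sequences are shown for 4 genes that stood at different ends of the lists. Among the 24 members with a promoter in the RefSeq table, Foxk2 has the densest CpG content, 59 CpG in 300 bases. It was acetylated at every stage. Foxi3 had H3K27ac at the first 3 stages and H3K27me3 at all 4 stages at which that mark was measured. Foxd1 had H3K27ac and PolII in every list from 108 h on and H3K27me3 at all 4 stages. Foxi1, with 6 CpG, had no region in any of the 5 assays. The windows are taken from RefSeq on GRCm38.p6, run 5′ to 3′ from 250 bases before to 50 bases after the start, and have every CpG in capitals. They are chr11:121259737-121260036 on the plus strand for Foxk2, chr6:70956356-70956655 on the plus strand for Foxi3, chr13:98353995-98354294 on the plus strand for Foxd1 and chr11:34208040-34208339 on the minus strand for Foxi1.
Foxk2: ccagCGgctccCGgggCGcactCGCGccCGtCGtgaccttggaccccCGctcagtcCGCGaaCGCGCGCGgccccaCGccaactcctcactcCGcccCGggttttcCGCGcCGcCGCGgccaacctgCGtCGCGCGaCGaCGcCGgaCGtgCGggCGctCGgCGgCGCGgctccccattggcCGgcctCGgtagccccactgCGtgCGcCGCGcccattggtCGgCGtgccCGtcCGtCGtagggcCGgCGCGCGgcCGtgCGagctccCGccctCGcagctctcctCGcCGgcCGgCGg
Foxi3: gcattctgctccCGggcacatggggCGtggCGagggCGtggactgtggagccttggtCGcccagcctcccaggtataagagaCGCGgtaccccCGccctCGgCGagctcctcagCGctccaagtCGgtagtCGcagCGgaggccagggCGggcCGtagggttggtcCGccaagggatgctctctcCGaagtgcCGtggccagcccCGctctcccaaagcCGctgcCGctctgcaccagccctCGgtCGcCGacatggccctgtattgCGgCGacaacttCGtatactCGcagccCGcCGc
Foxd1: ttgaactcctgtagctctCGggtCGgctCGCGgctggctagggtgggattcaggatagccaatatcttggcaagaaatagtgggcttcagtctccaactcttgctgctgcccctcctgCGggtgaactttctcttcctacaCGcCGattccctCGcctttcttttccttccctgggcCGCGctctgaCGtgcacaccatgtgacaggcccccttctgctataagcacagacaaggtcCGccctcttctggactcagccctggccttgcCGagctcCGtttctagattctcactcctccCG
Foxi1: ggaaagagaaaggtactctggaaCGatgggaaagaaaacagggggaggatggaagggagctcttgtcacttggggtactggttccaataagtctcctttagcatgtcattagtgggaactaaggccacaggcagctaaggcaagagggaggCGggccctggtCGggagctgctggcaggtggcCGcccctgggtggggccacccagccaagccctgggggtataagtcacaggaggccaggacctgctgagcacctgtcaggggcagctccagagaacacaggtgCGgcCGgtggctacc
The RefSeq table held 24 of the 39 promoters. Their median was 19 CpG in 300 bases, against 14 over the 16515 promoters of the table. The 8 matched members with PolII at all 8 stages had a median of 32, the 6 matched members with H3K27me3 at all 4 stages had 12.5, and the 2 matched members with neither H3K27ac nor PolII had 7. The GGGCGG box of SP and KLF factors, searched on both strands, stood in 16 of the 24 promoters and in 47.5% of all promoters of the table.

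The lists differed in depth. H3K27ac lists held 24002 to 67663 regions, PolII lists 12304 to 20672, NIPBL lists 4888 to 40490, H3K27me3 lists 7212 to 11469 and RAD21 lists 31823 to 71196. Peak calling compared each window with a lowest background of 2.85 to 4.53 fragments in H3K27ac and 1.43 to 2.99 fragments in H3K27me3, so an uncovered promoter means that nothing was callable at this depth. Replicate lists of the same group shared 40.8% to 68.5% of their bases, and none were identical. In pooled stembryos, fewer cells of a type and less signal per cell cannot be told apart.

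Acetylation reached 35 of the 39 promoters at some stage, against 69% of all genes. PolII reached 26 (59% of all genes), NIPBL 29 (60.6%), RAD21 29 (62%) and H3K27me3 25 (24.4%). H3K27ac was present at all 9 stages at 15 promoters (47.5% of all genes had this). PolII was present at all 8 stages at 14 (45.1% of all genes), and 12 promoters had both (42.7% of all genes). H3K27me3 was present at all 4 stages at 12 promoters, while 11.6% of all genes had it at all 4. Foxi1 and Foxn1, a gene of the inner ear and kidney and a gene of thymus and hair, had no region of these 5 assays at the promoter (26.8% of all genes). Foxq1, a gene of gut and hair, and Foxs1, a gene of perivascular cells, had none of H3K27ac, PolII and NIPBL there. With Foxi1 and Foxn1 this makes 4 members, against 29.5% of all genes. Over the gene window, Foxi1 had no region either, whereas Foxn1 had PolII over 4.86% and 2.34% at 72 h and 84 h and NIPBL over 4.39% at 96 h, and Foxq1 had PolII over 6.31% at 144 h and NIPBL over 9.28% and 13.5% at 96 h and 144 h. Of the 5 forkhead genes left out, 2 had promoter H3K27ac at all 9 stages, 1 had PolII at all 8 and 3 had H3K27me3 at all 4.

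**Figure D1:**
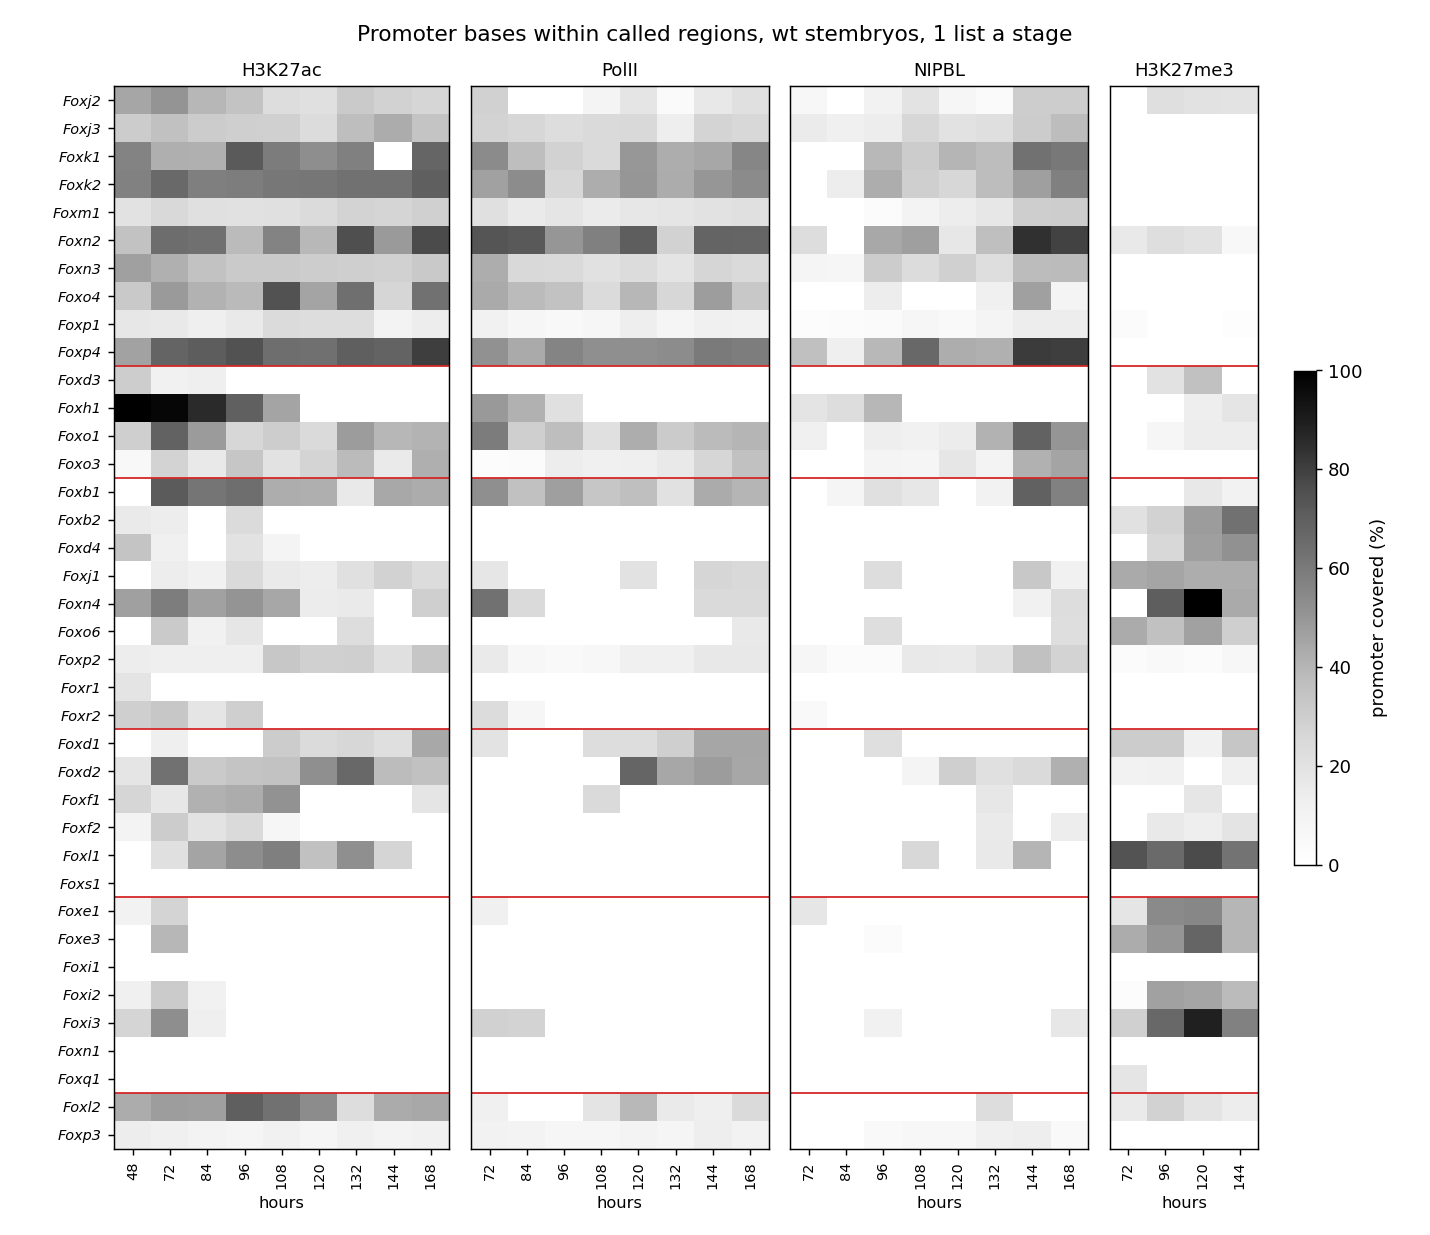
Percentage of forkhead promoters within called regions (grey scale, 0 to 100%) by hours after aggregation, in the unnumbered wt lists of H3K27ac, PolII, NIPBL and H3K27me3; red lines part the role groups. The cycling-related and widely used genes at the top carry H3K27ac and PolII in nearly every list, and the ectoderm and gland genes near the bottom carry mostly H3K27me3.

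The widely used genes formed the constant group. Of the 10, 9 had H3K27ac at all 9 stages and 9 had PolII at all 8, and H3K27me3 was present at all 4 stages at 1. Foxp4, a partner of Foxp1 and Foxp2 in lung and gut, had the highest mean H3K27ac cover, 67.2%, and the highest mean NIPBL cover, 50.0%. Its H3K27ac covered 45.7% at 48 h and 80.2% at 168 h, and PolII covered between 43.7% at 84 h and 60.02% in the 144 h list. Foxk2, which with Foxk1 restrains autophagy genes, had H3K27ac over 57.1%, 66.4% and 57.9% in the lists of 48 h, 72 h and 84 h. The 3 lists of 96 h gave 59.5%, 53.9% and 58.7%, that of 108 h gave 60.6%, and those of 120 h gave 58.0%, 41.0% and 60.97%. The lists of 132 h, 144 h and 168 h gave 63.2%, 63.1% and 69.8%, so the whole series moved over a narrow range apart from the second 120 h list. Foxn2 had the highest mean PolII cover, 60.8%, with values from 28.0% at 132 h to 73.7% at 72 h. Foxk1 had H3K27ac in every wt list except the 144 h list, where the promoter was uncovered, although PolII covered 44.5% and NIPBL 63.0% at that stage. Foxj2 was the member of this group without constant PolII, which was uncalled at 84 h and 96 h.

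The promoters of 4 members lie close to the start of another protein-coding gene, and this sets what their values can mean. Foxm1, which drives entry into mitosis, starts 99 bases from Rhno1, a gene of the DNA damage response on the other strand. Its H3K27ac covered 17.7% to 28.5% and its PolII 15.0% to 21.04% in all wt lists, and no covered base lay more than 1 kb from the Rhno1 start. The same held for Foxp3, the regulator of regulatory T cells, which starts 604 bases from Ppp1r3f. H3K27ac covered 4.86% to 14.4% and PolII 7.48% to 13.6% of its promoter, so these 2 genes could not be separated from their neighbours. Foxj3 starts 892 bases from Frg2f1, and beyond 1 kb of that start H3K27ac still covered 16.4% to 35.4% and PolII 3.24% to 18.6%. Foxh1 is the fourth and is described next.

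Foxh1 lost its active marks between 96 h and 120 h. The gene lies on chromosome 15, minus strand (mm10, chr15:76668225-76669948). In the lists of 48 h, 72 h and 84 h, H3K27ac covered 100%, 97.4% and 85.7% of its promoter. The 3 lists of 96 h gave 79.3%, 63.5% and 69.5%, and that of 108 h gave 45.5%. All 3 lists at 120 h and the lists at 132 h, 144 h and 168 h gave 0%. PolII covered 49.2%, 41.4% and 20.7% at 72 h, 84 h and 96 h, and NIPBL covered 18.8%, 22.8% and 39.2% at those stages. Neither was called in the 5 lists from 108 h on. PolII phosphorylated on serine 2 (pSer2 PolII), the elongating form, covered 33.1% at 72 h and 13.2% at 96 h and was uncalled in the other 3 lists. H3K27me3 was uncalled at 72 h and in all 3 lists at 96 h, then covered 13.3% at 120 h and 18.7% at 144 h.

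Between the 3 lists at 96 h (70.7% ± 7.95, SD, n = 3) and the 3 lists at 120 h (0%), Foxh1 promoter H3K27ac fell by 70.7 percentage points (SE 4.53, 95% confidence interval -81.7 to -59.8, limma adjusted p = 0.0065 over 13281 genes). It was the only one of the 28 members tested that passed, and 0.0527% of all genes tested passed in this direction and 0.0151% in the other. Foxh1 passed the filter of at least 2% mean cover through 96 h only, so the filter set its direction. Because the lists of the same label deviated together, the fit with the replicate block is given as well: the difference is the same and the adjusted p is 0.0633, which does not pass. Without the first, the second or the unnumbered list of 120 h, the adjusted p was 0.113, 0.0909 and 0.0553. An exact permutation test of 3 lists against 3 cannot go below p = 0.1. Ppp1r16a starts 1667 bases away on the other strand. Its own promoter had H3K27ac in every wt list, 23.6% to 45.4%, and its PolII, uncalled in the 2 earliest lists, covered 19.3% at 96 h and 36.0% at 168 h. In the 1667 bases of the Foxh1 window that lie beyond 1 kb of that start, H3K27ac covered 100% up to 84 h, 95.1%, 76.2% and 83.4% at 96 h and 54.6% at 108 h, then 0%. In the Del(CBS1) lists the Foxh1 promoter had 69.5% and 69.3% at 96 h against 14.3% and 0% at 120 h, and in the Del(CBS1-2) lists 47.9% and 47.4% against 0% and 0%. The markers of pluripotent cells listed were Pou5f1, Nanog, Zfp42, Esrrb, Klf4 and Tfcp2l1. Of these 6, 4 had promoter H3K27ac at 48 h and in no list of 120 h. Their summed H3K27ac cover was 161 points at 48 h, 37.7 to 80.1 in the lists of 96 h and 17.6 to 29.5 in those of 120 h, where Pou5f1, Nanog, Zfp42 and Tfcp2l1 were uncovered in all 3 lists. Nanog and Zfp42 were already uncovered in all 3 lists of 96 h, and Pou5f1 and Esrrb in the 2 numbered lists of 96 h. The part of these markers in the Foxh1 result and in the losses of H3K27ac at other members was not tested.

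**Figure D2:**
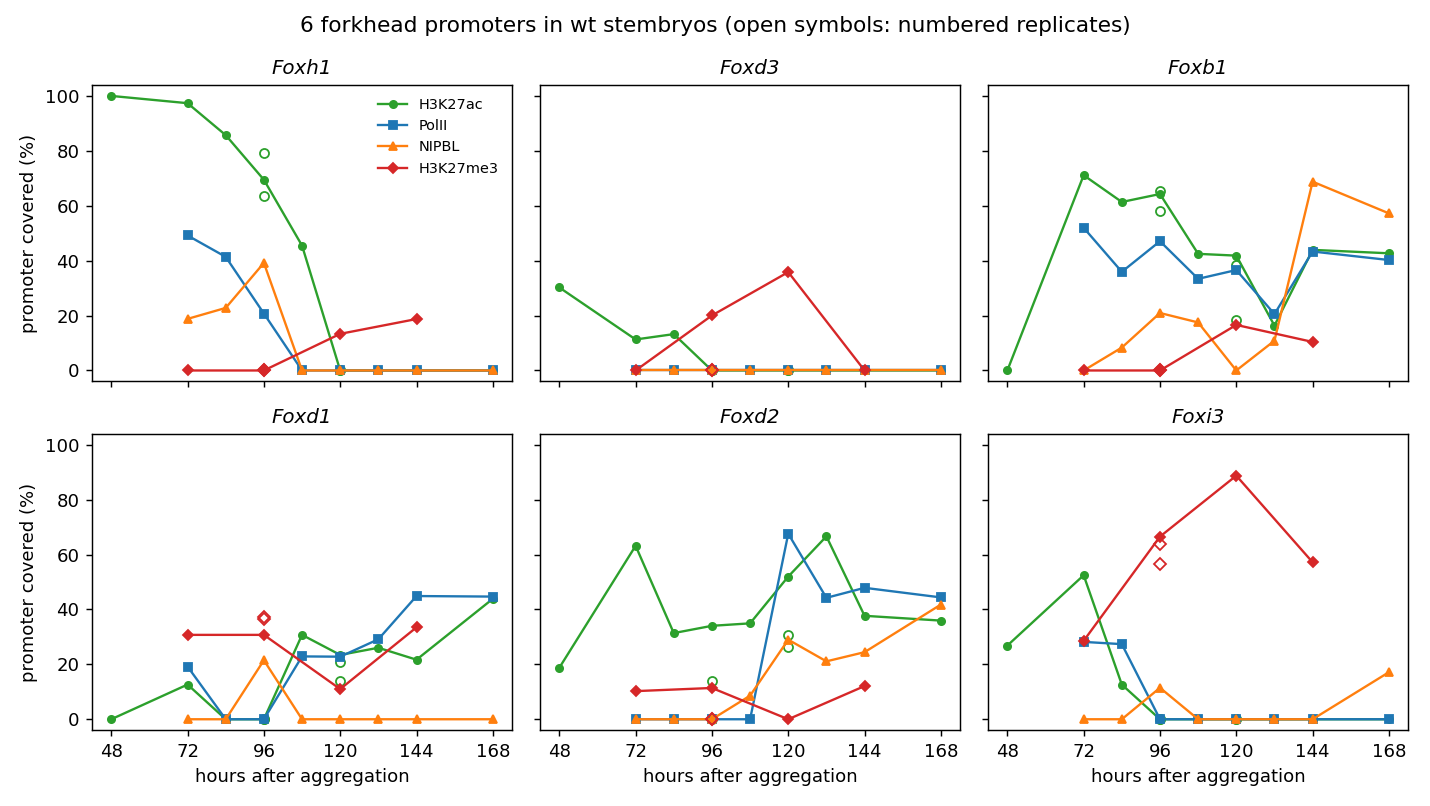
Percentage of the promoter within called regions (vertical) by hours after aggregation (horizontal) for Foxh1, Foxd3, Foxb1, Foxd1, Foxd2 and Foxi3 in wt stembryos; lines join the unnumbered lists and open symbols are the numbered replicates of 96 h and 120 h. Foxh1 H3K27ac goes from 100% at 48 h to 0% from 120 h on, Foxd2 PolII first appears at 120 h, and Foxi3 H3K27me3 reaches 88.7% at 120 h.

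The other genes placed in the epiblast and Nodal group differed from Foxh1. Foxd3 had H3K27ac over 30.2%, 11.3% and 13.2% of its promoter in the lists of 48 h, 72 h and 84 h, and none in the 10 lists from 96 h on. No PolII or NIPBL region was called there at any stage. Promoter H3K27me3 covered 20.0% in the unnumbered 96 h list and 0% in both numbered ones, so these did not repeat the promoter call. It covered 35.8% of the promoter at 120 h and 0% at 144 h. Over the Foxd3 gene window, H3K27me3 was uncalled at 72 h and called in every later wt list. It covered 7.87% and 14.3% in the numbered 96 h lists and 11.8% in the unnumbered one. The lists of 120 h and 144 h gave 21.04% and 21.16% of that window. Foxo1 and Foxo3 had H3K27ac and PolII at every stage. PolII over the Foxo3 promoter went from 2.07% at 72 h through 12.6% at 120 h to 35.2% at 168 h. Foxo1 had PolII over 59.2% at 72 h and 40.1% at 168 h, and H3K27me3 over 7.40% to 16.9% in the 5 lists from 96 h on.

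Counting presence at 48 h, before activation, against all 3 lists at 120 h, promoter H3K27ac was lost at 11 members and gained at 3. Over all genes 8.7% lost and 1.2% gained it. The 11 were Foxb2, Foxd3, Foxd4, Foxe1, Foxf1, Foxf2, Foxh1, Foxi2, Foxi3, Foxr1 and Foxr2. Among them Foxh1 is the gene with cover above 35% at 48 h. At the others the 48 h cover lay between 9.80% at Foxf2 and 34.2% at Foxd4, a neuroectoderm gene. Foxf1 had H3K27ac over 26.5%, 16.9% and 41.4% in the first 3 stages, 0%, 0% and 42.8% in the lists of 96 h and 51.4% in that of 108 h. It was uncalled from 120 h to 144 h and was covered over 18.0% at 168 h. Foxr2, a gene of the germ line placed here in the neural and ciliary group, had 29.4%, 33.0% and 18.5% in the first 3 stages. It had 0%, 7.12% and 29.6% at 96 h and 0% afterwards. PolII covered 23.3% of its promoter at 72 h and 7.10% at 84 h. Foxr1 had a region at 48 h only, over 18.8%. Foxb2 had 15.5% and 13.7% in the first 2 stages and 23.5% in 1 of the 3 lists of 96 h. Foxe1, the thyroid gene, had 10.2% and 26.99% in those of 48 h and 72 h, and Foxi2 had 11.8%, 31.1% and 11.2% in the first 3 stages.

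The 3 genes that gained H3K27ac were Foxb1, Foxd1 and Foxj1. Foxb1, a gene of the early neural plate and hypothalamus, was uncalled at 48 h and had 71.1% and 61.4% in the lists of 72 h and 84 h. The 3 lists of 96 h gave 65.5%, 58.2% and 64.3%, that of 108 h 42.5%, and the 3 of 120 h 38.3%, 18.5% and 41.8%. The lists of 132 h, 144 h and 168 h gave 16.3%, 43.9% and 42.7%. PolII was called at all 8 stages, between 20.5% and 52.0%. NIPBL covered 68.8% at 144 h and 57.2% at 168 h and at most 20.9% before. All 3 lists of 120 h were below all 3 of 96 h, by a mean of 29.8 points (95% confidence interval -46.1 to -13.4, limma adjusted p = 0.187). H3K27me3 was called over 16.6% at 120 h and 10.4% at 144 h, and was uncalled at 72 h and in the 3 lists at 96 h.

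Foxd1, a gene of kidney stroma and retina, had H3K27ac over 12.6% in the list of 72 h and none in the other 5 up to 96 h. The 108 h list gave 30.7%, the 3 of 120 h gave 20.8%, 13.9% and 23.4%, and those of 132 h, 144 h and 168 h gave 26.0%, 21.7% and 43.9%. PolII, which covered 19.2% at 72 h and was uncalled at 84 h and 96 h, covered 22.9%, 22.8%, 29.1%, 44.9% and 44.7% in the 5 later lists. H3K27me3 was called at every stage, over 30.7% at 72 h, 37.3%, 36.7% and 30.7% in the lists of 96 h, 10.99% at 120 h and 33.5% at 144 h. The H3K27ac and H3K27me3 regions of Foxd1 did not share a base at any stage. The 3 lists at 120 h exceeded the 3 at 96 h by 19.4 points (95% confidence interval 11.3 to 27.5, limma adjusted p = 0.107). Foxd1 passed the filter of at least 2% mean cover through 120 h only, so the filter set this direction. Foxj1, the switch gene for motile cilia, was uncalled at 48 h, had H3K27ac over 11.3% to 27.7% in all later lists except 1 of 96 h, and kept H3K27me3 between 42.0% and 47.3% in all 6 lists. Its H3K27me3 summit ranked at the 95.1 to 97.3 percentile of fold enrichment among the protein-coding promoters with a region in the same list.

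Foxd2, a gene of kidney and paraxial mesoderm, had H3K27ac at all 9 stages, from 18.7% at 48 h to 66.6% at 132 h, although 1 of the 3 lists at 96 h was uncalled. PolII was uncalled from 72 h to 108 h and covered 67.6%, 44.2%, 47.9% and 44.4% in the 4 lists from 120 h on. NIPBL was uncalled in the 3 lists up to 96 h and covered 8.60%, 29.0%, 21.1%, 24.4% and 41.8% in the 5 later lists. H3K27me3 covered 10.2% at 72 h, 11.4% in 1 of the 3 lists of 96 h, and 12.1% at 144 h, and was uncalled at 120 h.

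**Figure D3:**
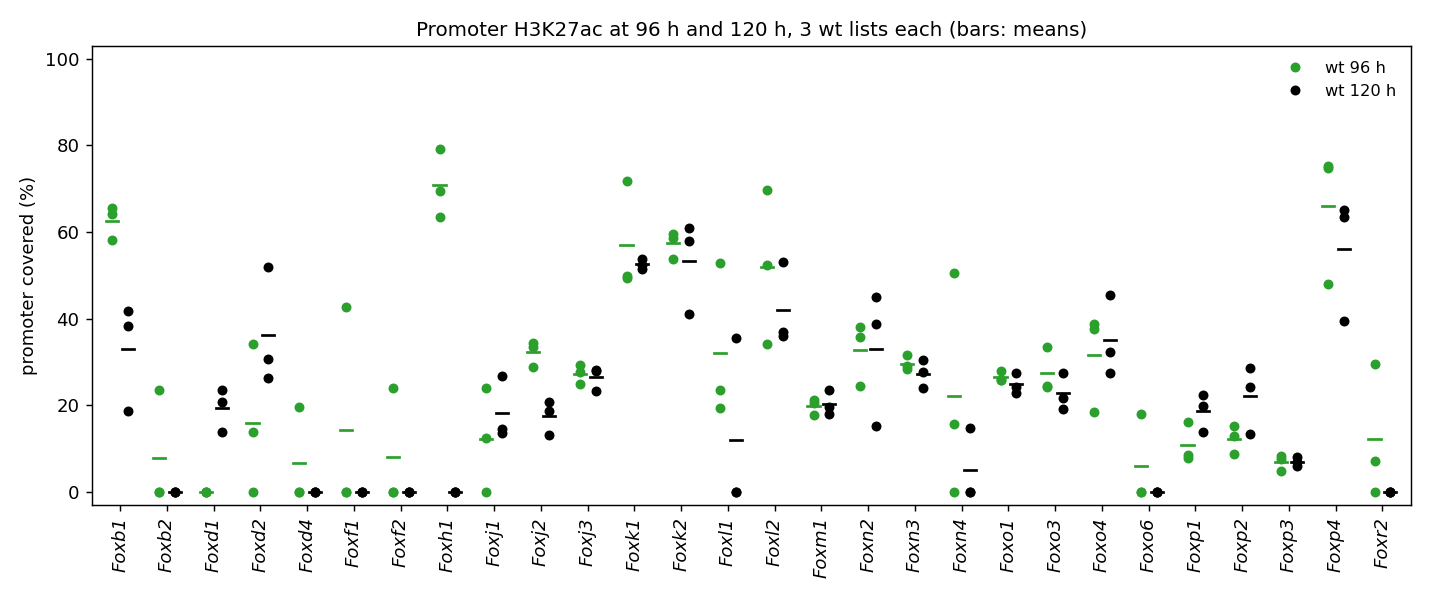
Promoter H3K27ac cover (y axis, %) of the 28 forkhead genes tested, in 3 wt lists of 96 h (green) and 3 of 120 h (black); points are lists and bars are means. The Foxh1 points lie between 63.5% and 79.3% at 96 h and at 0% at 120 h, and the points of most other genes overlap between the stages.

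Of the 28 members that passed the filter of a mean cover of at least 2%, 8 did so through 1 of the stages only, Foxh1 and Foxd1 among them. Of the other 20, 13 had a lower mean at 120 h and 7 a higher one, with a median difference of -2.01 points, against -4.25 points over the 11815 genes with at least 2% at both stages. All 3 lists were lower at 120 h without overlap at Foxb1, Foxh1 and Foxj2, and higher at Foxd1. Over all genes tested the shares were 17.3% lower and 1.29% higher. Foxj2 had 33.4%, 28.8% and 34.4% at 96 h and 18.6%, 13.05% and 20.8% at 120 h (limma adjusted p = 0.183).

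By role group, mean promoter H3K27me3 over the 4 stages was 27.1% at the ectoderm and gland genes, 22.9% at the neural and ciliary genes, 20.2% at the mesoderm genes and 3.22% at the widely used genes. Foxl1, which is expressed in the mesenchyme below the gut epithelium, had the highest mean cover, 69.8%. Its values were 74.4% at 72 h, 74.8%, 75.8% and 65.9% in the lists of 96 h, and 76.8% and 62.2% in those of 120 h and 144 h. The same promoter had H3K27ac over 21.3%, 45.7% and 57.8% in the lists of 72 h, 84 h and 108 h. None of the PolII lists had a region there, but pSer2 PolII covered 10.7% at 96 h and 12.9% at 120 h. At 96 h, 1059 of its bases lay within both an H3K27me3 and an H3K27ac region, the longest shared stretch among the members. Foxi3, a gene of ectodermal placodes and pharyngeal arches, followed with a mean of 60.2%. It had H3K27me3 over 28.6% at 72 h, 56.5%, 63.8% and 66.5% in the lists of 96 h, and 88.7% and 57.2% in those of 120 h and 144 h. Its H3K27ac covered 26.8%, 52.5% and 12.6% in the first 3 stages and was uncalled afterwards, and PolII covered 28.2% and 27.4% at 72 h and 84 h only. The PolII summit at 72 h stood 14.4-fold over background, at the 99.0 percentile of the protein-coding promoters with a region in that list. NIPBL was called at 96 h and 168 h, over 11.5% and 17.1%.

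Foxn4, which sets up retinal and spinal interneurons, had no H3K27me3 at 72 h, 73.3%, 62.4% and 70.1% in the lists of 96 h, and 100% and 43.5% in those of 120 h and 144 h. PolII covered 63.0% at 72 h and 24.6% at 84 h, was uncalled from 96 h to 132 h, and covered 24.3% and 24.1% at 144 h and 168 h. H3K27ac covered 46.7% at 48 h and 59.0% at 72 h, and at 120 h 1 of 3 lists had a region, over 14.7%. Foxd4 had no H3K27me3 at 72 h, 59.5%, 78.0% and 25.1% in the lists of 96 h, and 47.0% and 51.6% in those of 120 h and 144 h. Foxb2, a gene of the developing brain, went from 20.4% at 72 h to 63.0% at 144 h. These 3 genes had the largest differences between 72 h and 144 h, each of which rests on 1 list.

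The 12 promoters with H3K27me3 at all 4 stages were those of Foxb2, Foxd1, Foxe1, Foxe3, Foxi2, Foxi3, Foxj1, Foxl1, Foxl2, Foxn2, Foxo6 and Foxp2. The ectoderm and gland genes held 4 of them among 7 genes and had neither H3K27ac nor PolII at every stage at any gene. Foxe3, the lens gene, had 42.6% at 72 h, 52.7%, 30.7% and 50.4% in the lists of 96 h, and 67.5% and 39.5% in those of 120 h and 144 h. Foxe1 had 18.2% at 72 h and 39.8% to 55.4% afterwards, and Foxi2 had 2.05% at 72 h and 34.1% to 46.5% afterwards. Foxo6, a gene of neurons, had 29.0% to 46.3%. All 12 also had H3K27ac in at least 1 list, and 8 of them had PolII. Of the 2533 genes with H3K27me3 at all 4 stages, 2394 had H3K27ac and 1699 had PolII in at least 1 list. Foxn2 and Foxp2 had both H3K27me3 at all 4 stages and PolII at all 8, as did 3.14% of all genes. The H3K27me3 cover of Foxn2 was 5.78% to 22.2% and that of Foxp2, a gene of cortical and striatal circuits with 8 annotated starts, was 2.99% to 6.18%. Foxl2, the ovarian granulosa gene, had H3K27me3 over 14.1% to 27.8% and H3K27ac over 22.6% to 69.7%. Between the lists of 72 h and 144 h, which hold 7732 and 7680 regions, the cover was higher at 14 members and lower at 8, against 13% and 7.02% of all genes. At 10 members promoter H3K27me3 was called at 120 h or 144 h and not at 72 h (8.6% of all genes). The 120 h list is longer, 10931 regions. At the Foxq1 promoter H3K27me3 was called at 72 h, over 18.1%, and not at 144 h. The Foxq1 gene window had 16.4% and 38.75% at these stages.

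Both marks were called in 14, 13, 10 and 11 promoters at 72 h, 96 h, 120 h and 144 h in the unnumbered lists. Over all genes the shares were 13.3%, 14.7%, 12.5% and 8.38%.

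The Del(CBS1-5) lists were compared with wt at 96 h because these are the H3K27me3 groups with numbered replicates. Of the 18 members that passed the filter over the gene window, none passed the limma test (lowest adjusted p over all genes 0.169), and 0% of the 2424 genes tested passed. At an unadjusted p under 0.05 there were 4 members, Foxd3, Foxf1 and Foxn4 among them, and 224 genes. Of the 18, Foxd3, Foxf1, Foxl2 and Foxn4 had a mean under 2% in Del(CBS1-5) and passed the filter through wt only, so their direction was set by the filter. The other 14 were lower in Del(CBS1-5), with a median of -7.76 points, as were 84.0% of the 2094 genes with at least 2% in both groups, with a median of -1.87. The first Del(CBS1-5) list is short, 7212 regions against 10844 in the second and 10192 and 11469 in wt. Without it the median over the members tested was -2.31 points, against -0.321 over all genes tested, and without the second list -14.0 against -3.98. With all lists cut to the same number of regions, 16 members were tested and no member or gene passed. All 16 were lower, with a median of -7.76 points, against -1.62 over the 2176 genes tested. In these settings members were not split by the group through which they passed the filter, which may have set the direction of some.

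Foxf1 had H3K27me3 over 15.7% and 20.4% of its gene window in the numbered wt lists and 0% in both Del(CBS1-5) lists (difference -18.1 points, SE 2.39, limma adjusted p = 0.180). The unnumbered wt list of 96 h, which is not in this test, also had 0%. Foxd4 had 73.8% and 82.9% against 23.8% and 62.4%, and 29.4% in the unnumbered wt list. Foxj1 had 27.9% and 27.2% against 25.4% and 27.7%, a difference of -0.95 points (95% confidence interval -11.8 to 9.90). Both Del(CBS1-5) lists were below both wt lists at 9 members, among them Foxd4, Foxf1, Foxl1 and Foxq1. Of these 9, 3 passed the filter through wt only. Over all genes tested 39.6% were so and 2.35% were higher without overlap. An exact permutation test of 2 lists against 2 cannot go below p = 0.333.

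**Figure D4:**
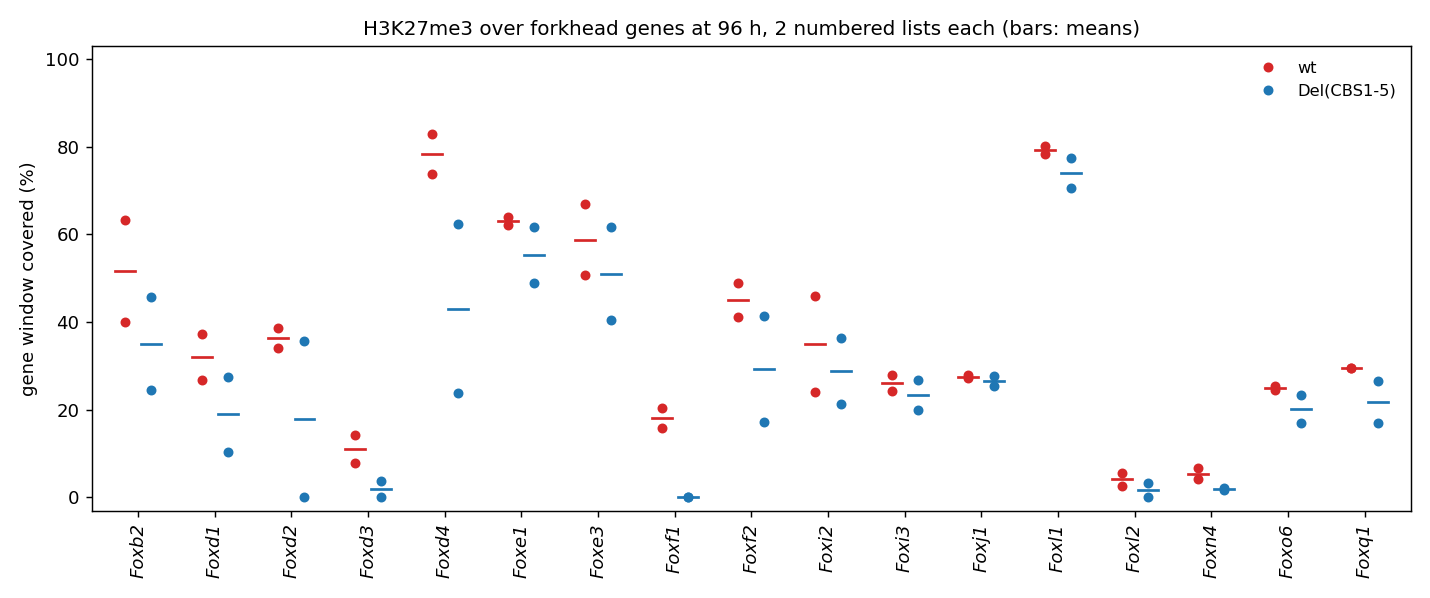
H3K27me3 cover of the gene window (y axis, %) of forkhead genes tested, at 96 h in 2 numbered wt lists (red) and 2 Del(CBS1-5) lists (blue); points are lists and bars are means. Foxf1 is at 15.7% and 20.4% in the numbered wt lists and at 0% in both Del(CBS1-5) lists, and Foxj1 differs by less than 1 point.

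Trends with stage were computed as Spearman's rho over the stages, with 1 value a stage and an exact two-sided permutation p adjusted over all genes tested. For H3K27ac, PolII and RAD21, 31, 21 and 21 members were covered at 3 or more stages, and none passed. Over all genes 0% passed in each of these 3 assays, of 13529, 11624 and 11512 tested. At an unadjusted exact permutation p under 0.05 there were 2652, 500 and 2854 genes. Foxh1 had the strongest H3K27ac trend among the members that are described here (rho = -0.957, Pearson's r = -0.921, exact permutation p = 0.000132, adjusted p = 0.0771, 9 stages). When the whole gene window was read in place of the promoter, Foxh1 (rho = -0.940) and Foxo3 (rho = -0.917) passed, both falling, of 29 members tested (exact permutation adjusted p = 0.0384 and 0.0469), and 2.64% of all genes fell. At the promoter the Foxo3 value had the other sign, rho = 0.467. For PolII, Foxo3 (rho = 0.929) and Foxd1 (rho = 0.874) were highest, with exact permutation adjusted p = 0.603 and 0.699.

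NIPBL cover rose with stage at 5 of the 19 members tested, Foxd2, Foxm1, Foxo3, Foxp1 and Foxp2, while 16.8% of all genes tested rose and 0.018% fell. At Foxm1 NIPBL covered 0%, 0%, 3.44%, 9.63%, 14.1%, 16.96%, 29.996% and 30.5% from 72 h to 168 h (rho = 0.994, r = 0.967, exact permutation adjusted p = 0.0268). Foxm1 starts 99 bases from Rhno1, and its NIPBL cover was not read apart from that neighbour. At Foxo3 NIPBL covered 0%, 0.0246%, 9.11%, 8.22%, 17.9%, 9.46%, 41.2% and 45.4% (rho = 0.952, r = 0.902, exact permutation adjusted p = 0.0268). Foxp1, a gene of B cells, lung and heart, went from 2.47% at 72 h to 13.9% at 168 h (rho = 0.952, r = 0.919). Foxp2 went from 7.05% to 27.5% (rho = 0.881, r = 0.876, exact permutation adjusted p = 0.0487), and Foxd2 had rho = 0.903 and r = 0.931 (exact permutation adjusted p = 0.0437). The NIPBL lists grew over the same stages, from 6652 and 4888 regions at 72 h and 84 h to 40490 and 37907 at 144 h and 168 h, and the median rho over all genes was 0.736. With lists cut to equal length, 9 members and 3465 genes could be tested and none passed. Foxd2 and Foxm1 were not among the 9, and rho was 0.952 at Foxo3, 0.0123 at Foxp1 and -0.203 at Foxp2. Without the 72 h and 168 h lists, r was 0.867 at Foxd2, 0.972 at Foxm1, 0.808 at Foxo3, 0.873 at Foxp1 and 0.943 at Foxp2, and none passed. Left out singly, the lists of 72 h, 84 h, 120 h, 132 h, 144 h and 168 h each took the count to 0, that of 108 h to 4 and that of 96 h, which is long for its stage with 34332 regions, to 10.

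RAD21 came from 2 sets of wt libraries, which the labels tag as cell type and cell line, 7 stages each. Foxp4 had the highest mean cover, 29.3%, with none at 48 h, 10.9% and 10.3% in the lists of 72 h, 50.5% and 78.9% in those of 132 h and 36.2% in that of 168 h. Foxk1 was uncalled at 48 h and 72 h, had 67.8% and 52.6% at 132 h and 64.4%, 61.4% and 50.4% at 144 h, and then 13.3% at 168 h. Within either set no member passed. For Foxp4 rho was 0.821 in the cell type lists and 0.811 in the cell line lists, and for Foxk1 it was 0.595 and 0.852, over 7 stages each (exact permutation adjusted p from 0.0649 to 0.807). The 168 h list, 34316 regions, is the only one of its stage, and without it 14 of 21 members and 5849 of 11412 genes passed. A line in stage fitted to all 16 lists with limma, added after the data were seen, called 6 of 22 members, all rising, and 14.3% of all genes rose. They were Foxk1 (13.6 points per 24 h, SE 3.30, limma adjusted p = 0.0175), Foxp4 (10.8, SE 2.85), Foxo1 (8.74, SE 2.67), Foxj1 (7.70, SE 2.51), Foxo3 (6.40, SE 1.82) and Foxp1 (1.63, SE 0.519). With the replicate block Foxk1, Foxo1, Foxo3 and Foxp4 still passed, and Foxj1 and Foxp1 had limma adjusted p = 0.0541 and 0.0512.

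**Figure D5:**
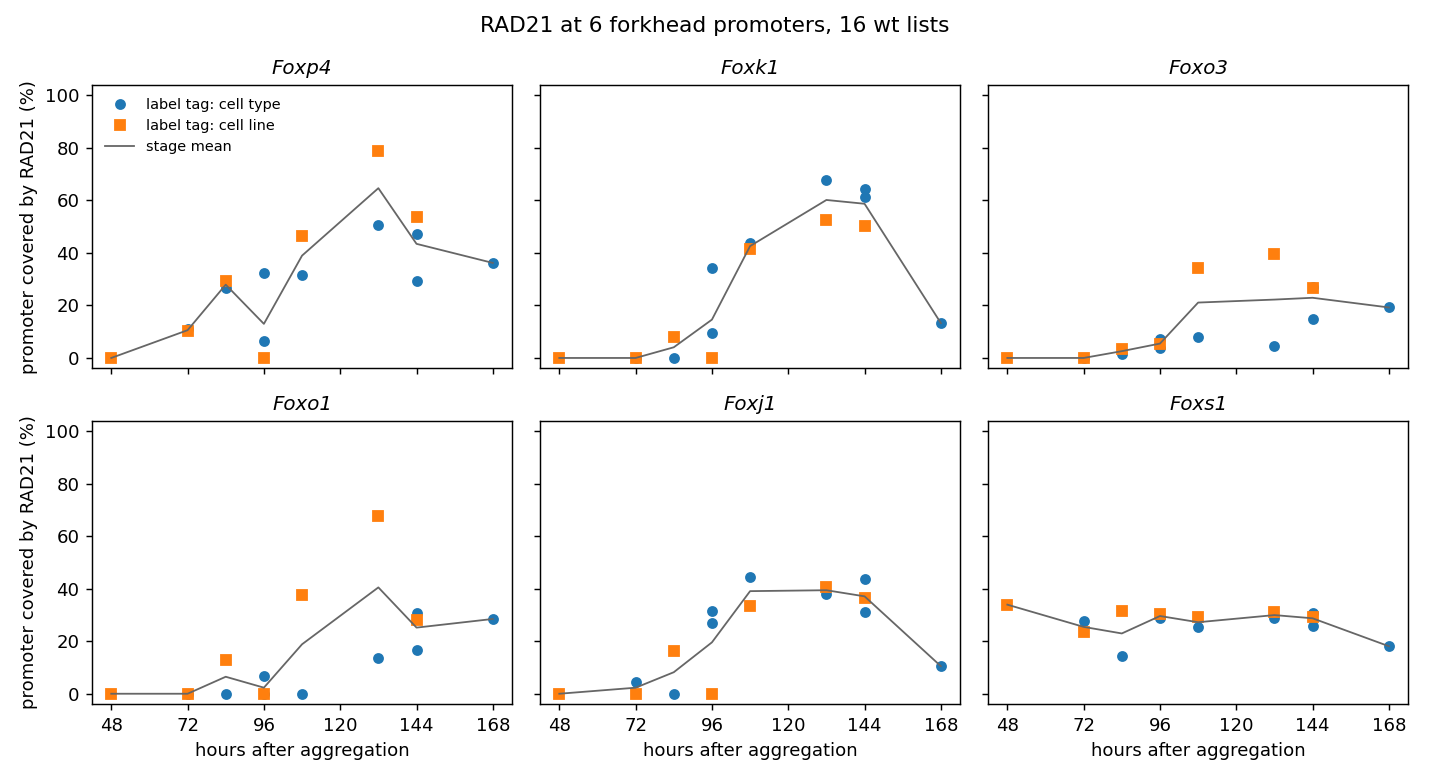
RAD21 cover of the promoter (vertical, %) by hours after aggregation (horizontal) for Foxp4, Foxk1, Foxo3, Foxo1, Foxj1 and Foxs1 in 16 wt lists; circles and squares are the 2 sets of libraries and lines join the means of the stages. Foxs1 stays between 14.3% and 33.9%, and Foxk1 goes from 0% at 72 h to above 50% at 132 h and 144 h and 13.3% at 168 h.

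Foxs1 and Foxn3 had RAD21 in all 16 wt lists, as did 7.84% of all genes. At Foxs1 it covered 14.3% to 33.9% and always lay on a region called for CTCF in wt, which covered 26.4% at 72 h and 34.3% at 168 h, while H3K27ac, PolII, NIPBL and H3K27me3 were uncalled. Foxo6 had RAD21 in 14 lists and Foxd2 in 13, all on CTCF. Foxp4, Foxo3, Foxp1, Foxj3 and Foxo4 had it in 14, 13, 10, 9 and 9 lists, none on CTCF. CTCF was called at 15 of the 39 promoters in a wt list and at 33.1% of all genes. The bases around the 72 h CTCF summit are shown for Foxs1 and Foxo6, as examples of promoters where every RAD21 region lay on CTCF. They are read from mm10 on the plus strand at chr2:152933781-152933901 for Foxs1 (633 bases upstream of its start, 12.9-fold over background) and chr4:120287873-120287993 for Foxo6 (13.1-fold). Capitals mark a core of the CTCF motif, the letters C, NNN, AG, NN and GGC in a row with N for any base, which was chosen after these summits were seen, here on the minus strand.
Foxs1: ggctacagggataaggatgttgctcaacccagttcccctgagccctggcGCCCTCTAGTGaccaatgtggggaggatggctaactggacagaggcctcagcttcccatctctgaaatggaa
Foxo6: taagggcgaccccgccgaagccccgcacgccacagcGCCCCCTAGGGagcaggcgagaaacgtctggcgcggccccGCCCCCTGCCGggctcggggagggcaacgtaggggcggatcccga
The core occurs 1 time at Foxs1 and 2 times at Foxo6, and was present at 50.5% of the CTCF summits of that list on 10 chromosomes. Searched on both strands, it stood in 6 of the 24 RefSeq promoters and in 25.9% of all promoters of the table.

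Some members lie within 200 kb of another forkhead gene. On chromosome 8 Foxf1 lies 32.2 kb and Foxl1 11.3 kb from Foxc2. PolII over the Foxc2 promoter covered 0% at 72 h and 84 h and 29.5% to 48.2% from 96 h on. Foxf1 had PolII in the 108 h list only, over 24.2%, and Foxl1 had none apart from pSer2 PolII at 96 h and 120 h. On chromosome 13 Foxq1 lies 67.2 kb from Foxf2 and Foxf2 lies 181 kb from Foxc1. Foxc1 had promoter PolII over 22.7% to 54.1% from 84 h on, and the promoters of Foxq1 and Foxf2 had none. On chromosome 4 Foxd2 lies 17.8 kb from Foxe3. Foxd2 had PolII over 44.2% to 67.6% from 120 h on, and Foxe3 had no PolII and had H3K27ac in the 72 h list only, over 39.3%.

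Marker lists were read in the same way. Of 16 genes of the Polycomb and Trithorax groups, 13 had H3K27ac at all 9 stages, 14 had PolII at all 8 and 1 had H3K27me3 at all 4, and NIPBL rose at 5 of the 13 tested. Of 6 lymphocyte and erythroid markers, cells that the cultures should lack, 2 had H3K27ac, 1 of them at all 9 stages, and 0 had PolII or H3K27me3 at any stage. Between 48 h and 120 h H3K27ac was gained and lost at 2 and 1 of 6 streak and tail bud markers, 2 and 0 of 6 somite markers, 1 and 0 of 6 neural markers and 0 and 2 of 6 vascular markers. The summed cover of the streak and tail bud markers was 216 to 266 points in the lists of 96 h and 67.6 to 189 in those of 120 h. The caudal factor CDX2 was called at 1 member promoter, Foxn3 at 96 h, and at 2.44% of all genes in any of its lists.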

How the data were processed

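Chromatin immunoprecipitation libraries of 82 stembryo samples were deposited as peak lists, of which 79 lists were used. Per the methods and the submitters' processing notes, the authors trimmed reads with cutadapt 1.16, mapped them to mm10 with Bowtie2 2.3.4.1, filtered them with SAMtools 1.8 and called peaks with MACS2 2.1.1.20160309, each library by itself without a control. The deposited values are fold enrichment at the summit (a ratio to the local background of the same library), −log10 of the p-value and of the q-value, and a peak score; the pSer2 PolII list of 144 h pools 3 samples. Sequencing depth itself is not in the lists, so fragments at a summit were solved from fold and −log10 p.

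Peaks that share a region were merged on 21 chromosomes and intersected with GENCODE M21. Covered percentages were compared with limma 3.58.1 (R 4.3.3; mean cover of at least 2%) or, for trends, by exact permutation with SciPy 1.17.1, both with Benjamini-Hochberg adjustment over all genes and a threshold of 0.05. All of these were tested on simulated data. Intervals cover the spread between lists, which may be technical. Replicate labels were checked for pairing: H3K27ac lists of the same label correlated at 0.123, 0.211 and 0.314 after their stage means were removed, so the block is given. Named are members called in a test, those that gained or lost H3K27ac, the 3 highest in each assay, those with constant H3K27me3 and those near another forkhead gene; others were named after their values were seen. A member is not reported here by name. Members and lists were chosen with earlier results of these data known.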

Additional observations from a re-analysis of the deposited data

How the results depend on the processing

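Alternatives changed 1 choice at a time: peaks with a −log10 q of at least 5, lists cut to equal length, windows of 2.5 kb or 5 kb, no filter on low cover, the gene window in place of the promoter (or the reverse), an arcsine scale, the replicate block and the mutant lists. Of 220 counts under an alternative, 164 lay within 1.5 times the value given, 33 were lower, 21 of them at 0, and 23 were higher. Of 80 values of single called members, 30 still passed, 49 no longer passed and 1 changed sign. Members called in H3K27ac at 120 h against 96 h numbered 1; they numbered 7 with the Del(CBS1) and Del(CBS1-2) lists and a genotype term, 2 on the arcsine scale and 0 with the replicate block, and 0 to 1 when a list was left out. Genes called in that comparison numbered 9, and 0 to 1038 over its alternatives. For H3K27me3 in Del(CBS1-5), lists of the same number correlated at 0.126 after their group means were removed. With 2 lists a group this is 1 value, since the deviations within a group are equal and opposite. The replicate block left the count of members at 0. The arcsine scale called 9 genes and no member. Reading the gene window called 2 members and 355 genes in the H3K27ac trend. NIPBL called 5 members; it called 2 with the gene window, 3 without the filter on low cover, 3 with stricter peaks, 0 of the 9 that could be tested with equal lists, 0 without the 2 end stages (chosen after seeing the data) and 0 to 10 when a stage was left out. Foxp2 changed sign to -0.203 with equal lists. RAD21 called 0 to 14 members when a stage or list was left out, and the PolII trend called 0 genes throughout. The H3K27ac, PolII and NIPBL trends have 1 list a stage, so no paired fit was possible there. For RAD21, a line in stage over the 16 lists, chosen after seeing the data, called 6 members and 1595 genes, 4 and 1302 with the replicate block and 5 and 1600 with the library set as block. Lists of the same number correlated between -0.134 and 0.482 after their stage means were removed, with a median of 0.174 and over 0.1 in 17 of 31 pairs. For lists of the same library set the median was 0.0398, with 16 of 41 pairs over 0.1, so the fits with either block are given. Promoters with H3K27me3 at all 4 stages numbered 12, and 7 with stricter peaks or 20 in the wide window; gains and losses of H3K27ac numbered 14, and 9 with stricter peaks or 9 with equal lists. In the wide window Foxh1 took up regions of Ppp1r16a. Other causes were not tested.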
